A study of Danio rerio with 12 samples.

Results

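Crystallins are the soluble proteins that fill the fibre cells of the eye lens, and the zebrafish genome holds a large set of genes for them. Every Ensembl gene identifier whose symbol names an alpha, beta A, beta B, gamma M, gamma N, gamma S or gamma X crystallin was taken, letter case ignored, and a gene was kept if it had at least 10 counts in at least 6 of the 12 samples. Of 32520 identifiers in the files, 57 had such a symbol and 50 passed. The 50 genes are 2 alpha, 7 beta A, 6 beta B, 32 gamma M, 2 gamma N and 1 gamma S crystallin genes. The 32 gamma M genes include 3 of the crygmx type, and no identifier carried a crygx symbol. The 7 identifiers that failed the count minimum were a CRYAB copy (ENSDARG00000042621), crygm2a, crygm4, crygm6, a CRYGS copy (ENSDARG00000041171), crygs3 and crygs4.

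The study compared elmo1-/- with elmo1+/+ zebrafish larvae at 120 hours post fertilization (hpf) to find processes that depend on Elmo1, a protein that acts upstream of the small GTPase Rac1. RNA of whole larvae was sequenced in 6 elmo1-/- and 6 elmo1+/+ samples, each a pool of 30 larvae. The elmo1-/- line carries a CRISPR/Cas9 insertion in exon 2 that shifts the reading frame of elmo1. It was made in the reporter line Tg(fli1:EGFP), whose endothelial cells express EGFP. The sample titles name the groups elmo1-/- and elmo1+/+, while the genotype field of the elmo1-/- samples reads hz, which the labels do not explain. No treatment is named in the labels, and the methods state that larvae were kept with or without the pigment inhibitor PTU without saying which applied here. The labels do not say whether the 6 samples of a genotype came from separate clutches, so p-values measure the spread between these pools only.

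Alpha crystallins are small heat shock proteins that act as chaperones and keep other lens proteins in solution. Beta and gamma crystallins share a common fold. Beta crystallins assemble into oligomers and are divided into acidic (A) and basic (B) forms, whereas gamma crystallins are monomers. Gamma M crystallins are known from the lenses of fish and other aquatic vertebrates and are rich in methionine. Gamma N crystallins have features of both the beta and the gamma group, and gamma S crystallin is best known from the mammalian lens. The lens is a small part of a larva, and in RNA from whole animals fewer lens cells and less RNA per lens cell cannot be told apart.

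The samples held between 20784515 and 21808513 expected counts, which are counts estimated by a program that divides shared reads among genes. The least different of the 66 pairs of samples had a chi-square of 7.01 per degree of freedom, so no pair agreed within sampling noise. elmo1 itself (ELMO1, ENSDARG00000098753) had 97.1, 107 and 120 CPM (lowest, median and highest of the elmo1-/- samples), against 121.7, 127.8 and 143.3 CPM in elmo1+/+ samples. CPM are counts scaled to a common library size. The genotypes did not overlap for elmo1, with a log2 fold change of −0.26 (SE 0.059) and an adjusted p of 0.137 in edgeR's quasi-likelihood test and of 0.0082 in DESeq2. Of 39 listed lens genes other than crystallins, 36 were found, on 38 identifiers. Of these identifiers, none was at 0 in all samples and 35 averaged over 1 TPM (transcript abundance relative to the library, divided by transcript length). The lens fibre membrane genes LIM2 (ENSDARG00000015445) and MIP (ENSDARG00000013963) and the beaded filament gene BFSP2 averaged 162.1, 123.3 and 96.5 TPM over the 12 samples.

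Crystallin transcripts were abundant in the larva. They made up 3.03 to 3.72% of all TPM in elmo1-/- samples and 3.13 to 3.52% in elmo1+/+ samples. As a share of expected counts, which are not divided by length, they made up 1.90 to 2.43% in elmo1-/- samples and 1.98 to 2.27% in elmo1+/+ samples. Of the 200 genes with the highest mean TPM in the files, 18 were crystallin genes, of the 100 highest 3 and of the 50 highest 1. Levels were unequal between members. In all, 13 genes averaged at least 1000 TPM and held 68.5% of the crystallin TPM, 30 averaged at least 100 TPM and held 98.8%, and 11 were under 10 TPM. Beta crystallins accounted for 46.5% of crystallin TPM, gamma M for 46.6%, gamma N for 6.66%, alpha for 0.231% and gamma S for 0.0027%.

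**Figure D1:**
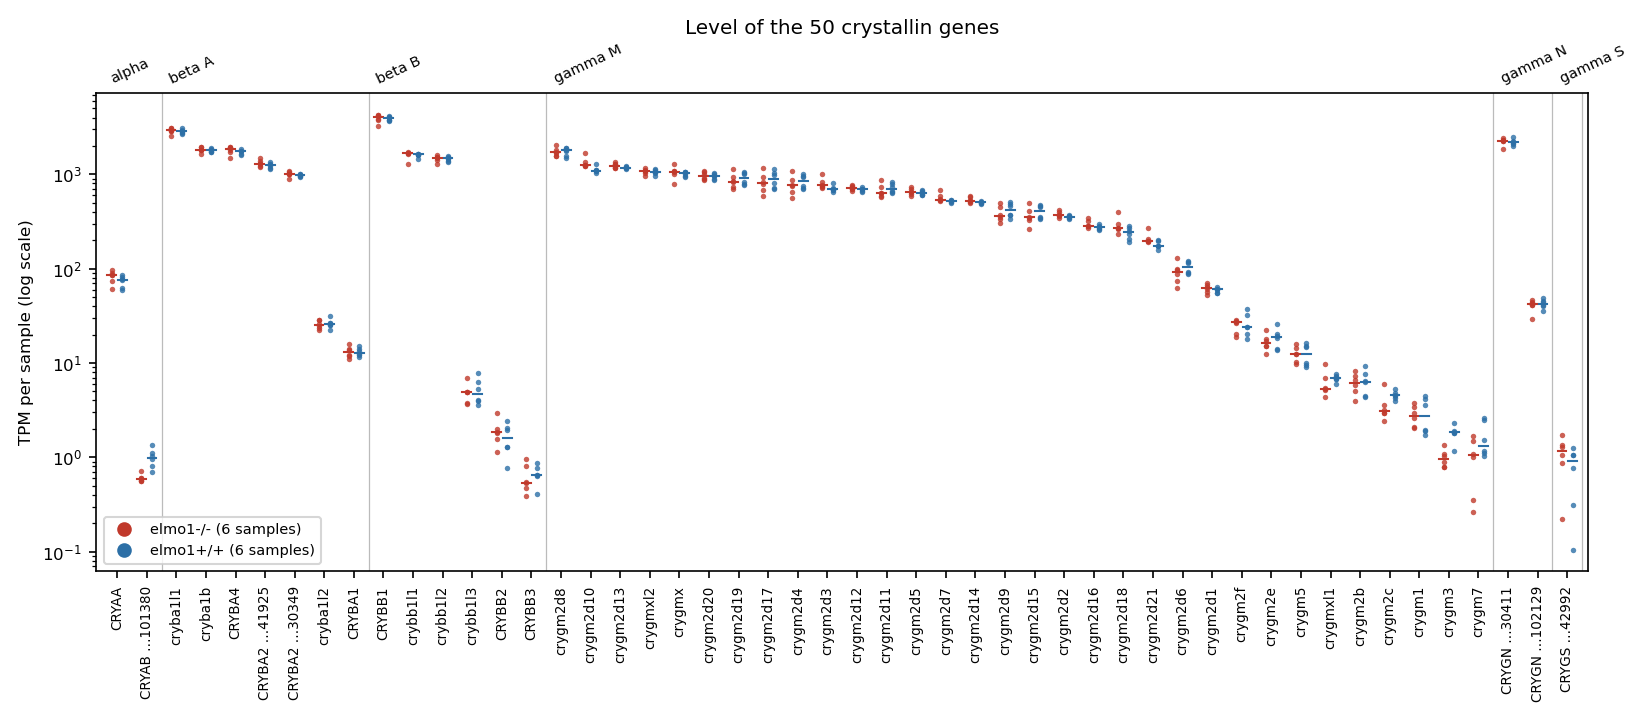
Level of each of the 50 crystallin genes in every sample, in TPM on a log scale, grouped by subfamily and ordered by mean level. Points are samples, short lines are medians of 6, and elmo1-/- stands left of elmo1+/+ for each gene. Levels span from under 1 TPM for CRYAB and CRYGS to 3915 TPM for CRYBB1, and the genotypes overlap for every gene.

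The summed level of all 50 genes was alike in size in both genotypes. The sums were 33377, 33427, 36078, 35038, 30321 and 37218 TPM in elmo1-/- samples 1 to 6, against 32112, 33628, 35216, 31266, 34426 and 34777 TPM in elmo1+/+ samples 1 to 6. Both the lowest and the highest sum belonged to elmo1-/- samples, sample 5 and sample 6, and the genotypes overlapped. Means were 34243 ± 2435 TPM in elmo1-/- and 33571 ± 1571 TPM in elmo1+/+ (SD, n = 6 each), a log2 ratio of 0.029. The difference of the means was smaller than the SD of either genotype. On the CPM scale, sums were 18049.9, 22602 and 25591 CPM (lowest, median, highest) in elmo1-/- samples and 19054, 21678 and 23050.1 CPM in elmo1+/+ samples, with a log2 ratio of 0.079. This ratio was 0.13 without elmo1-/- sample 5 and 0.037 without elmo1-/- sample 6.

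**Figure D2:**
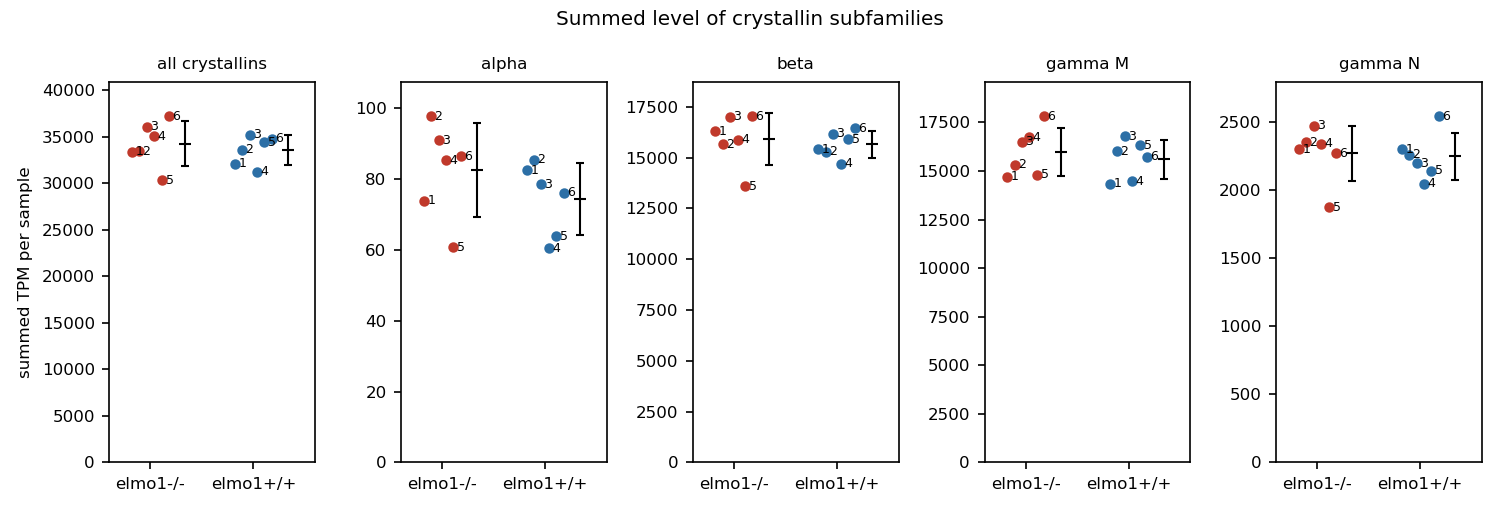
Summed TPM of all crystallin genes and of the alpha, beta, gamma M and gamma N genes in each sample, with elmo1-/- left of elmo1+/+. Numbers are sample numbers, and bars are the mean and SD of 6 samples. Sample 5 of elmo1-/- was the lowest of its genotype in the total, alpha, beta and gamma N panels, and the genotypes overlap in each panel.

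No crystallin gene differed between genotypes at an adjusted p under 0.05. Of the 48 members that passed the expression filter of the test, 0 were called, where 0.234% of the 21830 genes tested were called (51 genes). At an unadjusted p under 0.05 stood 6 of 48 members (12.5%), 5 higher and 1 lower in elmo1-/-, against 6.16% of all genes tested, 3.06% higher and 3.1% lower. DESeq2 called 0 members and 97 of all genes, and it had 7 members (14.6%) at an unadjusted p under 0.05, against 5.502% of all genes. The log2 fold change was above 0 for 31 of 48 members, against 51.7% of all genes, and its median was 0.068, against 0.0043 over all genes. Members share libraries and lens RNA, so these counts are not counts of independent genes. No member had CPM values that did not overlap between the genotypes, a pattern found in 0.513% of all genes. For the 30 members at 100 TPM or more, SEs were at most 0.17, and intervals of 2 SE around the log2 fold changes lay between −0.40 and 0.57. The other 2 members, crygm3 and CRYBB3, had too few counts for the filter. With no filter, all 50 members were tested, 0 were called and 8 (16%) had an unadjusted p under 0.05, against 5.93% of all genes. Of these 8, crygm3 and crygm7 met the count minimum mainly through elmo1+/+ samples, the genotype where their mean was higher.

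**Figure D3:**
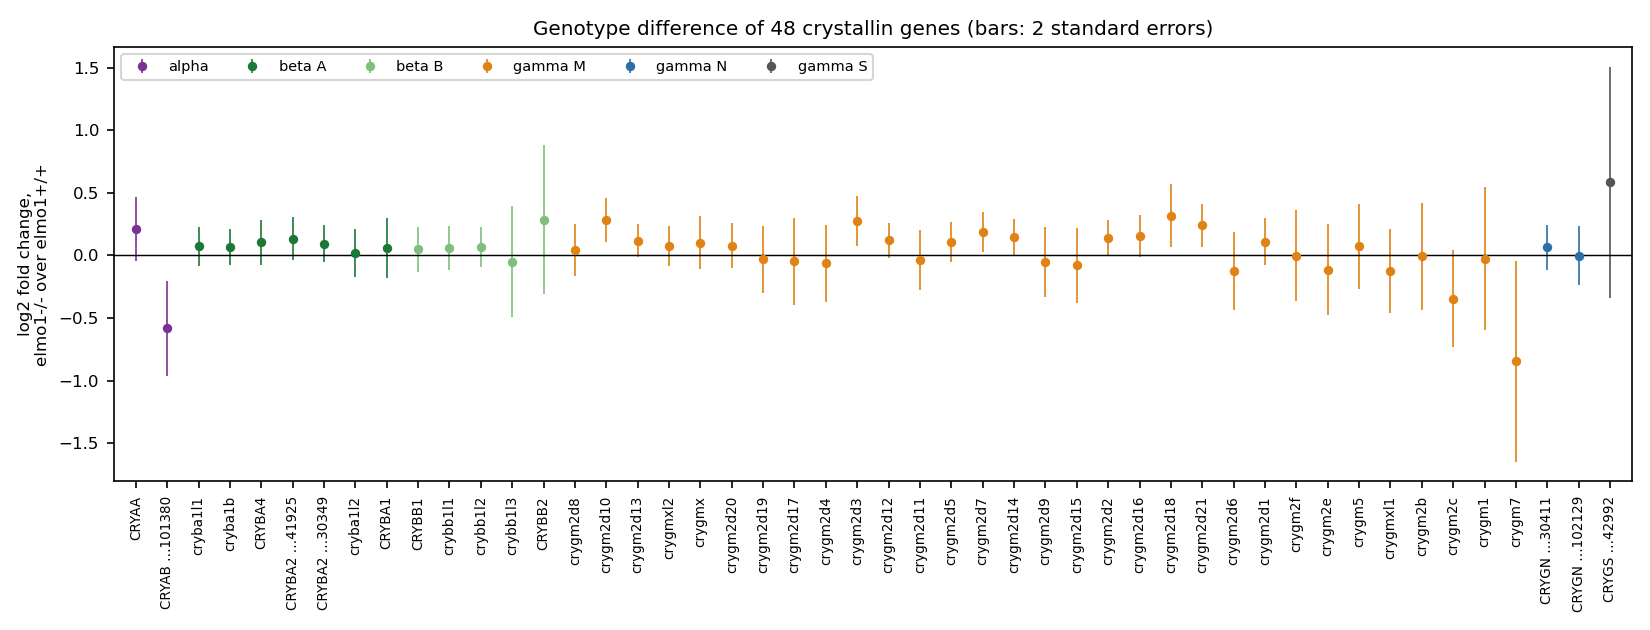
Log2 fold change of elmo1-/- over elmo1+/+ for the 48 crystallin genes tested, with bars of 2 standard errors, coloured by subfamily and ordered by level within it. Most values lie near 0, and the widest bars belong to genes with few counts, crygm7, CRYGS and CRYBB2. No gene passes an adjusted p of 0.05.

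CRYAA encodes alpha A crystallin, an alpha crystallin of the lens. It had 73.2, 97.1, 90.4, 84.7, 60.1 and 85.7 TPM in elmo1-/- samples 1 to 6, against 81.2, 84.6, 77.5, 59.3, 63.0 and 75.0 TPM in elmo1+/+ samples 1 to 6. The highest value was in elmo1-/-, but the lowest values of the genotypes were close and the ranges overlapped. The log2 fold change was 0.21 (SE 0.13), with an adjusted p of 0.93 in edgeR's test. CRYAB (ENSDARG00000101380) encodes an alpha B crystallin, which in mammals is made in muscle and heart as well as in lens. It was at the edge of detection, with 10 to 14 expected counts in elmo1-/- samples and 12 to 22 in elmo1+/+ samples. Its level was 0.47, 0.57 and 0.64 CPM (lowest, median, highest) in elmo1-/- and 0.57, 0.85 and 1.01 CPM in elmo1+/+. Sample 2 of elmo1+/+ fell within the elmo1-/- range, and the other 5 elmo1+/+ samples lay above it. The log2 fold change was −0.58 (SE 0.19), with an unadjusted p of 0.0078 and an adjusted p of 0.54 in edgeR's test. Of 9 other small heat shock protein genes, 0 were called and 1 (11.1%) had an unadjusted p under 0.05, with either tool. Over all genes tested this share was 6.16% in edgeR. The gene was hspb15, whose log2 fold change was 0.51, with an adjusted p of 0.38 in edgeR's test.

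The 2 most abundant single crystallin genes were beta crystallin genes. CRYBB1, a basic beta crystallin, averaged 3915 TPM over the 12 samples, the highest level of any member. It had 4228, 3740.2, 4181, 3834, 3215 and 4296 TPM in elmo1-/- samples 1 to 6, against 3774, 3711, 4042, 3746, 4125 and 4092 TPM in elmo1+/+ samples 1 to 6. Sample 5 of elmo1-/- lay below all others and sample 6 of elmo1-/- above all others. The log2 fold change was 0.051 (SE 0.090), and its sign turned when elmo1-/- sample 6 was left out or TPM were tested. The 2 next most abundant basic genes were crybb1l1, with a mean of 1613 TPM, and crybb1l2, with 1468 TPM. The acidic genes cryba1l1, cryba1b and CRYBA4 averaged 2889, 1814 and 1767 TPM. CRYBA4 had 1489, 1838 and 1948 TPM (lowest, median, highest) in elmo1-/- samples and 1595, 1756 and 1869 TPM in elmo1+/+ samples, and ranges of cryba1l1 and cryba1b overlapped likewise.

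Beta crystallin genes stood in 2 tiers. The 2 identifiers named CRYBA2 also averaged near 1000 TPM, with 1273 TPM for ENSDARG00000041925 and 993 TPM for ENSDARG00000030349. Well below these came cryba1l2 at 25.8 TPM, CRYBA1 at 13.1 TPM, crybb1l3 at 5.01 TPM, CRYBB2 at 1.76 TPM and CRYBB3 at 0.638 TPM. Of 12 beta genes tested, 0 were called and 0 had an unadjusted p under 0.05, in edgeR as in DESeq2. Over all genes tested these shares were 0.234% and 6.16% in edgeR. In 11 of the 12 beta genes the log2 fold change was above 0 (51.7% of all genes), and it was between −0.050 and 0.29. The beta genes share libraries and lens RNA, so these signs are not independent of each other. Without elmo1-/- sample 5, whose low values run through this group, the median log2 fold change of all members was 0.12, and without elmo1-/- sample 6 it was 0.025.

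Basic and acidic beta genes lie side by side in 3 places of the genome. By gene order in RefSeq (assembly GRCz12tu, another build than that of the files, so no positions are given), no protein-coding gene lies between crybb1l1 and cryba1l1, between crybb1l2 and cryba1l2, or between crybb1 and cryba4. The TPM ratio within each pair is given as a description, since no pairs of genes that lie apart were set beside them. The level of the pairs was not alike. CRYBB1 over CRYBA4 was 2.17 ± 0.043 in elmo1-/- and 2.26 ± 0.092 in elmo1+/+ (SD, n = 6 each). The ratio of crybb1l1 over cryba1l1 was 0.555 ± 0.027 in elmo1-/- and 0.561 ± 0.023 in elmo1+/+. The pair of crybb1l2 and cryba1l2 was lopsided, with ratios of 58.1 ± 4.6 in elmo1-/- and 56.3 ± 5.1 in elmo1+/+.

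Gamma M crystallins were the largest subfamily, and 21 of its 32 genes were copies numbered crygm2d1 to crygm2d21. These copies held 40.2% of all crystallin TPM. In the RefSeq gene order they form 1 unbroken row: from the first to the last copy there are 21 protein-coding genes, all of them crygm2d. The wider stretch from crygm7 to crygs3 holds 37 protein-coding genes, 34 of them with crygm or crygs symbols. The sequences of the copies were not compared here. Where copies resemble each other, a read can fit several of them, and the count of each copy depends on how the authors' program divided such reads. Their sum is less exposed to this than the single copies.

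Levels of the crygm2d copies covered a wide range. The most abundant was crygm2d8 with 1737 TPM, followed by crygm2d10 with 1227 TPM and crygm2d13 with 1211 TPM, and the least abundant was crygm2d1 with 60.7 TPM. The summed copies had 12474, 13584 and 15544 TPM (lowest, median, highest) in elmo1-/- samples and 12337, 13599 and 14586 TPM in elmo1+/+ samples. These sums overlapped, with a log2 ratio of 0.035 on the TPM scale and 0.092 on the CPM scale. In elmo1-/- samples, crygm2d8 had 1552, 1715 and 2030.5 TPM, against 1504, 1790.2 and 1914 TPM in elmo1+/+ samples. For crygm2d13 the values were 1155, 1237 and 1334 TPM in elmo1-/- and 1148, 1180.2 and 1226 TPM in elmo1+/+. For crygm2d20 they were 880, 954 and 1091 TPM in elmo1-/- and 869, 954 and 1034 TPM in elmo1+/+.

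The 5 members with an unadjusted p under 0.05 and a higher level in elmo1-/- were all crygm2d copies: crygm2d10, crygm2d21, crygm2d3, crygm2d18 and crygm2d7. For crygm2d10 the level was 636, 709.8, 919, 743, 634 and 722 CPM in elmo1-/- samples 1 to 6, against 565, 566, 594, 568, 584 and 709 CPM in elmo1+/+ samples 1 to 6. Sample 3 of elmo1-/- stood highest, and sample 6 of elmo1+/+ was the single wild-type sample inside the elmo1-/- range. The log2 fold change of crygm2d10 was 0.28 (SE 0.088), with an unadjusted p of 0.0060 and an adjusted p of 0.48 in edgeR's test, the smallest of the 48 members tested. For crygm2d21 the level was 98.99, 110 and 148 CPM (lowest, median, highest) in elmo1-/- and 90.1, 94.6 and 111 CPM in elmo1+/+. Its log2 fold change was 0.24 (SE 0.087), with an adjusted p of 0.65 in edgeR's test.

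Counts of such members moved with single samples. Without elmo1-/- sample 5, 20 of 49 members (40.8%) had an unadjusted p under 0.05, against 8.81% of all genes in the same fit. Without elmo1-/- sample 1 there were 12 of 49 (24.5%), against 6.63% of all genes. Leaving out each of the 10 other samples left 6 to 9 of 48 or 49 members (12.2 to 18.75%), against 5.03 to 6.56% of all genes. No member was called with any of the 12 samples left out. With the sample number as a further term of the edgeR fit, 13 of 48 members (27.1%) had an unadjusted p under 0.05. The share of all genes in that fit was 7.55%, and 0 members were called.

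The 21 copies did not keep constant shares of their sum. The share of each copy in the summed expected count of the 21 copies was computed in each sample, and the log2 shares were followed along their main axis of variation over the 12 samples. This axis held 91.4% of the variance of the log2 shares, and the next held 3.24%. It was 93.3% within elmo1-/- samples alone, 90.2% within elmo1+/+ samples alone, 91.1% with TPM in place of counts, and 86.8 to 92.7% with each sample left out. The loading on the axis was over 0.1 in size for 13 copies. Set A held 7 copies (crygm2d4, 6, 9, 11, 15, 17 and 19) and set B held 6 copies (crygm2d3, 7, 10, 16, 18 and 21), while 8 copies had smaller loadings. The sets were chosen from these same values, so what follows is a description with no test.

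Where set A took a larger share, set B took a smaller one. Set A made up 27.5, 29.5, 22.1, 30.9, 29.8 and 35.0% of the copies' counts in elmo1-/- samples 1 to 6, against 29.8, 34.7, 35.4, 29.5, 34.8 and 29.0% in elmo1+/+ samples 1 to 6. Set B made up 29.0, 27.4, 34.2, 26.9, 27.8 and 22.8% in elmo1-/- samples, against 26.9, 23.0, 22.7, 27.3, 23.0 and 27.8% in elmo1+/+ samples. The ratio of A over B was lowest in elmo1-/- sample 3, at 0.646, and was 1.51 to 1.56 in elmo1-/- sample 6 and in elmo1+/+ samples 2, 3 and 5. It lay between 0.951 and 1.15 in the other 7 samples. Both genotypes thus held samples of the middle and of the upper range, and the lowest ratio occurred in 1 elmo1-/- sample. The 8 other copies together stayed between 41.9 and 43.7% in all 12 samples.

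Within a set the copies moved closely together. Over the 12 samples, the median correlation of log2 shares was 0.95 within set A, 0.91 within set B and −0.93 between the sets. These shares come from the same 12 libraries and sum to a constant, which by itself makes some of them oppose each other. The copy crygm2d18 varied most, from 1.12 to 2.34% of the copies' counts, a 2.09-fold range with a coefficient of variation of 21.5%. The copy crygm2d20 varied least, from 7.20 to 7.65%, with a coefficient of variation of 1.84%. In the RefSeq order, crygm2d7, crygm2d3, crygm2d21 and crygm2d10 of set B are 4 neighbours in a row, but crygm2d18 of set B lies between crygm2d15 and crygm2d17 of set A. All 5 copies with an unadjusted p under 0.05 belong to set B. The axis was drawn over all 12 samples without removing genotype means, and the p-values come from the same counts. This overlap is therefore in part built in. The cause of the shifts in share was not tested.

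**Figure D4:**
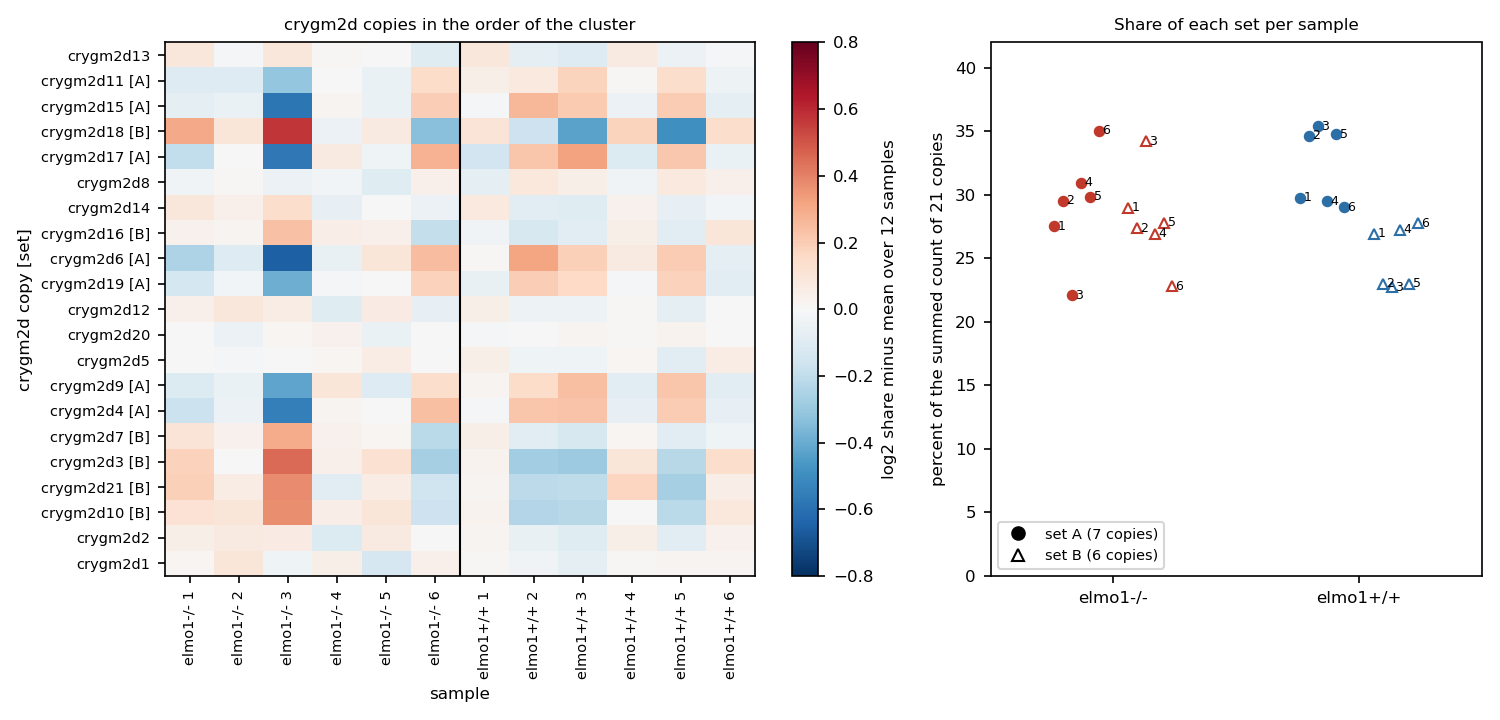
Left, log2 share of each crygm2d copy in the summed expected count of the 21 copies, minus its mean over 12 samples, with copies in the RefSeq gene order and elmo1-/- samples left of elmo1+/+ samples. Right, share of set A (filled circles) and set B (open triangles) in each sample, in percent, with sample numbers beside the points. Set A is lowest, at 22.1%, and set B highest, at 34.2%, in elmo1-/- sample 3.

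The 3 crygmx-type genes of the gamma M group fell into an abundant pair and a scarce gene. In crygmxl2 the level was 955, 1081 and 1167 TPM (lowest, median, highest) in elmo1-/- samples, against 960.1, 1053 and 1141 TPM in elmo1+/+ samples. In crygmx it was 1076, 1009, 1274, 1047, 798 and 1092 TPM in elmo1-/- samples 1 to 6, against 946, 1064, 1063, 964, 1002 and 1045 TPM in elmo1+/+ samples 1 to 6. The elmo1-/- values of crygmx included both the lowest, in sample 5, and the highest, in sample 3. Its coefficient of variation of CPM was 17.8% in elmo1-/- and 8.61% in elmo1+/+. The third gene, crygmxl1, averaged 6.56 TPM. The log2 fold changes of crygmx and crygmxl2 were 0.10 (SE 0.11) and 0.072 (SE 0.080).

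The 8 remaining gamma M genes were scarce. They averaged from 25.5 TPM for crygm2f and 17.6 TPM for crygm2e to 1.40 TPM for crygm3 and 1.32 TPM for crygm7. Together they held 0.211% of crystallin TPM, with sums of 60.9, 68.9 and 80.2 TPM in elmo1-/- samples and 60.2, 77.4 and 88.5 TPM in elmo1+/+ samples. For crygm7 the expected counts were 16, 9, 4, 9, 18 and 2 in elmo1-/- samples 1 to 6, against 26, 29, 12, 11, 13 and 17 in elmo1+/+ samples 1 to 6. Its log2 fold change was −0.85 (SE 0.40), with an unadjusted p of 0.051 and an adjusted p of 0.81 in edgeR's test, and the ranges overlapped. For crygm1 the level was 0.73, 0.98 and 1.45 CPM in elmo1-/- and 0.60, 1.01 and 1.66 CPM in elmo1+/+, with a log2 fold change of −0.027 (SE 0.29). For crygm3, which did not pass the filter, the level was 0.29, 0.36 and 0.47 CPM in elmo1-/- and 0.41, 0.68 and 0.83 CPM in elmo1+/+. With no filter on low counts its log2 fold change was −0.86 (SE 0.25), with an adjusted p of 0.42 in edgeR's test, the smallest of the 50 members in that fit. Expected counts of crygm3 were 6 to 10 in elmo1-/- samples and 9 to 18 in elmo1+/+ samples, and 10 counts were reached in 6 samples only. This gene is thus a member mainly through elmo1+/+ samples, the genotype where its level was higher. Its lower level in elmo1-/- is therefore not a result independent of how members were selected. A count of 3 in a library corresponded to 0.137 to 0.150 CPM, so differences among these genes rest on few reads.

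Of the gamma N genes, 1 was abundant and 1 was not. CRYGN (ENSDARG00000030411) was the third most abundant crystallin gene, with a mean of 2217 TPM. It had 1846, 2278 and 2426 TPM (lowest, median, highest) in elmo1-/- samples and 2010.4, 2182 and 2503 TPM in elmo1+/+ samples. CRYGN (ENSDARG00000102129) averaged 41.7 TPM, with 29.3, 42.3 and 46.1 TPM in elmo1-/- samples and 35.2, 42.5 and 49.1 TPM in elmo1+/+ samples. For both genes the lowest sample was elmo1-/- sample 5 and the highest was an elmo1+/+ sample. Their log2 fold changes were 0.065 (SE 0.090) and −0.001 (SE 0.12).

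Gamma S crystallin was barely detectable. CRYGS (ENSDARG00000042992) had 8, 12, 13, 16, 2 and 10 expected counts in elmo1-/- samples 1 to 6, against 11, 10, 1, 7, 3 and 10 in elmo1+/+ samples 1 to 6. Samples with 3 counts or fewer were found in both genotypes. The log2 fold change was 0.58 (SE 0.46), with an interval of 2 SE from −0.34 to 1.51, and the adjusted p was 0.96 in edgeR's test. The 3 other gamma S identifiers had at most 5 expected counts in any sample.

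Levels of the abundant crystallin genes were spread more widely in elmo1-/- than in elmo1+/+. The coefficient of variation of CPM was higher in elmo1-/- for 39 of 48 members (81.3%), against 53.7% of all genes tested. Among members at 100 TPM or more it was higher in elmo1-/- for 30 of 30, against 52.2% of the 864 tested genes at that level. The median coefficient of variation of the 30 members was 13.5% in elmo1-/- and 9.21% in elmo1+/+, against 8.74% in elmo1-/- and 8.62% in elmo1+/+ over the 864 genes. Among the 18 tested members under 100 TPM, it was higher in elmo1-/- for 9 (50%). The other lens genes leaned the same way as the abundant members, with a higher value in elmo1-/- for 24 of 36 (66.7%). Their medians were 10.9% in elmo1-/- and 8.33% in elmo1+/+. The members share libraries and lens RNA, so they are not independent of each other and no test was made. The count stayed at 30 of 30 without elmo1-/- sample 1, 2 or 4 and fell without sample 3, 5 or 6. Without sample 5 the count was 24 of 30, without sample 6 it was 23 of 30, and without both it was 16 of 30 (53.3%, against 38.9% of the 864 genes). Without sample 3 it was 25 of 30. On the deposited TPM it was 30 of 30 with all samples.

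**Figure D5:**
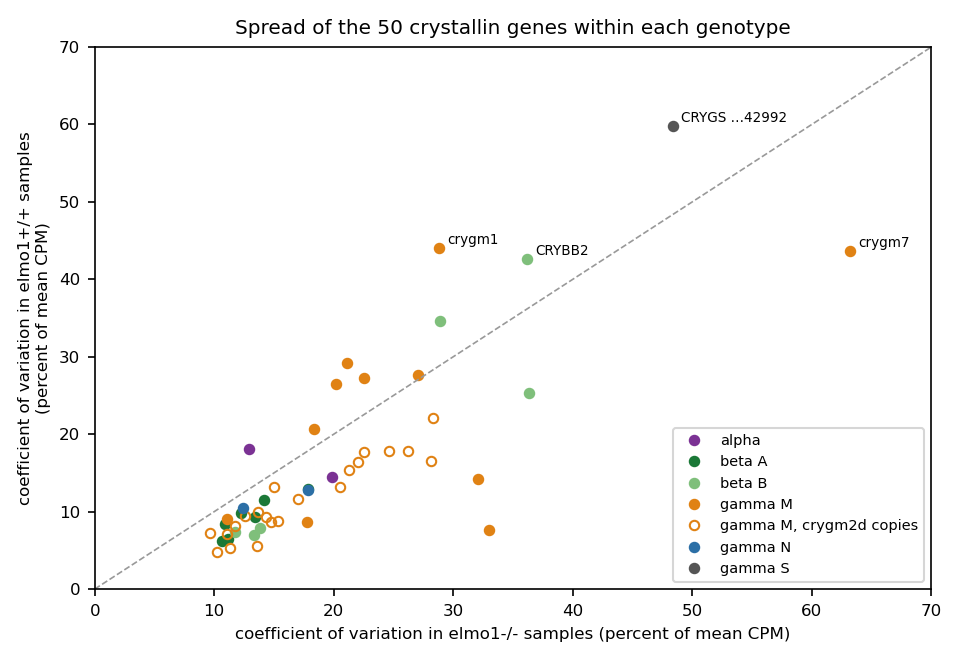
Coefficient of variation of CPM of the 50 crystallin genes within the 6 elmo1-/- samples (horizontal) and within the 6 elmo1+/+ samples (vertical), both in percent, with a dashed line of equal values. Open circles are the crygm2d copies. All 21 copies lie below the line, that is, they varied more in elmo1-/-, and the largest values belong to genes with few counts such as CRYGS and crygm7.

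The extremes fell on few samples. The highest CPM of a gene over the 12 samples was in elmo1-/- sample 6 for 23 of the 50 members and in elmo1-/- sample 3 for 14. The lowest was in elmo1-/- sample 5 for 12 members and in elmo1+/+ sample 1 for 14. On the TPM scale the highest value was in elmo1-/- sample 6 for 17 members and in elmo1-/- sample 3 for 16. The lowest TPM was in elmo1-/- sample 5 for 13 members and in elmo1+/+ sample 1 for 6. Of the 11 members at 100 TPM or more that are not crygm2d copies, 9 were lowest in elmo1-/- sample 5 and 7 were highest in elmo1-/- sample 6. Some other tissues moved in these samples too. Muscle markers (9 genes) summed to 62213 TPM in elmo1-/- sample 5 and 69465 TPM in elmo1-/- sample 6, the lowest and highest of the elmo1-/- samples, against 61237 to 71215 TPM in elmo1+/+ samples. Epidermis markers (11 genes) ran the other way, with 15079 TPM in elmo1-/- sample 5 and 11046 TPM in elmo1-/- sample 6, against 12101 to 15351 TPM in elmo1+/+ samples. Pigment markers (13 genes) were highest of the elmo1-/- samples in sample 5, at 834 TPM, and lowest in sample 6, at 739 TPM. Photoreceptor markers (31 genes) had 10655 TPM in elmo1-/- sample 5 and 11125 TPM in elmo1-/- sample 6. Both lay inside the range of the other elmo1-/- samples, 9758 to 11873 TPM. The part of these tissues in the crystallin values was not tested.

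Other lens genes showed no called difference either. Of 36 lens genes tested, 0 were called and 0 had an unadjusted p under 0.05 in edgeR's test, as in DESeq2. Their median log2 fold change was 0.048. Their summed level was 1201, 1309 and 1348 TPM (lowest, median, highest) in elmo1-/- samples and 1267, 1317 and 1390.4 TPM in elmo1+/+ samples, and elmo1-/- sample 5 was again the lowest. Sample 6 of elmo1-/-, with the highest crystallin sum, had 1311 TPM, near the median of its genotype. LIM2 (ENSDARG00000015445) averaged 165 ± 16 TPM in elmo1-/- and 159 ± 8.4 TPM in elmo1+/+ (SD, n = 6 each). MIP (ENSDARG00000013963), the water channel of lens fibres, averaged 121 ± 11 TPM in elmo1-/- and 126 ± 7.9 TPM in elmo1+/+. BFSP2 averaged 93.9 ± 5.7 TPM in elmo1-/- and 98.97 ± 6.7 TPM in elmo1+/+. Among 31 photoreceptor genes, 0 were called by either tool and 3 (9.68%) had an unadjusted p under 0.05 in each, all higher in elmo1-/- in edgeR. Of 13 pigment, 11 epidermis and 9 muscle genes, 0 were called by either tool. The only ones with an unadjusted p under 0.05 were 2 epidermis genes in edgeR (18.2%), both lower in elmo1-/-, and 3 in DESeq2. Of 6 genes outside the rule that carry crystallin in their names, such as the enzyme gene cryz, 0 were called and 0 had an unadjusted p under 0.05 with either tool.

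The genes whose level followed the summed crystallin level most closely were sought over all tested genes outside the rule, as the correlation over the 12 samples after the mean of its genotype was subtracted from each value. The 10 highest were GJA3 (r = 0.96), si:ch211-255g12.6 (0.96), ENSDARG00000110346 (0.96), TNNC2 (0.95), EIF3D (0.94), CAPN3 (0.93), RPL27 (0.93), vgll2b (0.93), LIM2 (ENSDARG00000015445; 0.93) and pvalb2 (0.92). GJA3, a gap junction protein, and LIM2 are lens fibre genes, while TNNC2 and pvalb2 encode calcium-binding proteins of fast muscle. The median r was 0.53 for the 36 lens genes, 0.75 for the 9 muscle genes and −0.0043 for all tested genes outside the rule. It was 0.74 for the 48 crystallin genes themselves. These are parts of the sum, so their r is in part built in and is not comparable with the others. Without elmo1-/- sample 5, only 2 of these 10 genes, GJA3 and si:ch211-255g12.6, were still among the 10 highest, and the others ranked down to 91. All values share the 12 libraries and their scaling, and they are given as a description.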

How the data were processed

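RNA of 12 pools of 30 whole larvae at 120 hpf was sequenced on a BGISEQ-500. Per the submitters' processing notes, Trim Galore 0.6.4, kallisto 0.4.6 and the build GRCz11 were used; the annotation is not given in the sources used here. The authors deposited expected counts per gene, of which 38.0 to 39.6% per sample are not whole, and TPM per gene, normalized for length and depth. Genotype and number of each sample came from the sample titles. Depth was 20784515 to 21808513 counts, so genes with few counts are imprecise.

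Expected counts were rounded and tested with edgeR 4.0.16 in R 4.3.3: filterByExpr (21830 genes kept), TMM factors, the quasi-likelihood test with genotype as the only term, all 12 samples, and Benjamini-Hochberg adjustment over all genes with a threshold of 0.05. SEs were derived from each fold change with its F statistic. CPM used TMM-scaled library sizes, with a prior count of 2 for log2 values. TPM served for levels between genes. The test was tested on simulated data. Alternatives were other scaling factors, other filters, a replicate block, DESeq2 1.42.0, limma 3.58.1 on log2(TPM + 1) and log2(TPM + 0.1), and leaving out each sample.

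Symbols were available for 29201 of 32520 identifiers. Upper-case symbols are orthologue names that several copies can share, so such genes are given with their identifier. Crystallin genes and marker lists were chosen with earlier results of these data known. Named genes were all alpha, gamma N and gamma S members, the 6 beta and 6 gamma M members of highest mean TPM, the 3 members with the smallest unadjusted p, the 3 with the highest coefficient of variation in elmo1+/+, the 3 most abundant other lens genes, and the 10 genes most like the crystallin sum. The sets of crygm2d copies and further members described were chosen after their values were seen. Protein and promoter sequences were not used here.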

Additional observations from a re-analysis of the deposited data

Results flagged for a closer look

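Of 150 sets of 6 values examined (the CPM of each of the 48 tested crystallin genes in each genotype, with the summed CPM of families, the share of each crygm2d copy and the ratio of the copy sets), 6 held a sample that stood apart by Dixon's test at the 95% level, where chance at 1 in 20 gives 7.5. For crybb1l1, elmo1-/- sample 5 had 1865 CPM, and the 5 others of its genotype had 2522 to 2776 CPM. For crygm2d18, elmo1-/- sample 3 had 165.03 CPM, with the 5 others at 97.6 to 114 CPM. For crygm2d21, elmo1-/- sample 3 had 148 CPM, with the 5 others at 98.99 to 116 CPM. For crygm2d3, elmo1-/- sample 3 had 535 CPM, against 355 to 407 CPM in the 5 others, and elmo1+/+ sample 6 had 406 CPM, against 302 to 336 CPM in the 5 others of elmo1+/+. For crygm2d10, elmo1+/+ sample 6 had 709 CPM, while the 5 others lay at 565 to 594 CPM.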

How the results depend on the processing

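The absence of a called crystallin gene held under each alternative run. Over all genes, DESeq2 called 97 (44 higher, 53 lower) in place of 51, and leaving out 1 sample gave 34 to 67. Of 21 named genes, including elmo1, 17 never changed sign. The sign turned for CRYBB1 with limma on TPM (−0.0053 with either pseudocount, and −0.0032 to 0.12 with a sample left out), for crygm2d8 with limma on TPM (−0.0093 with either pseudocount, and −0.037 to 0.090 with a sample left out), for crygm1 (−0.15 to 0.15 with a sample left out) and for CRYGN (ENSDARG00000102129; −0.058 to 0.094 with a sample left out). All 4 had main values within 1 SE of 0, and the cause was not tested. DESeq2 gave elmo1 an adjusted p of 0.0082.

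The sample numbers 1 to 6 occur in both genotypes, and the labels do not say what they mark. Same-numbered samples deviated together with a mean correlation of 0.13 (−0.033 to 0.30), over 0.1 in 4 of 6 pairs. In all, 7 of 12 samples correlated best with their own number. The main fit left the samples unpaired, although these values show some likeness between same-numbered samples and do not show that they are independent. With a replicate block, 60 genes were called over all (33 higher, 27 lower), 0 crystallin genes were called, 13 of 48 (27.1%) had an unadjusted p under 0.05, against 7.55% of all genes in that fit, and the log2 fold change of crygm1 was 0.0063. Depth limits what can be said of the 11 crystallin genes under 10 TPM, and of single crygm2d copies the division of shared reads does.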
